A study of Homo sapiens with 12 samples.

Results

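The response to CDDP, which is cisplatin, was measured in the human ovarian cancer line SK-OV-3 carrying a scrambled shRNA (shCTRL). The comparison used 6 of the 12 Illumina bead arrays of the series: 3 arrays of shCTRL with CDDP and 3 arrays of shCTRL without it, 1 array per sample. Per the labels, RNA was taken at 24 hours of CDDP. Neither the CDDP dose nor whether the shRNA cells were 1 clone is given in the sources used here. The other 6 arrays came from SK-OV-3 cells with an IRF-1 shRNA, 3 with CDDP and 3 without, and served to estimate the spread and to compare responses. A probe was counted when its detection p-value, which sets it against the negative controls of its array, was under 0.05 on at least 3 of the 6 arrays. This held for 18732 of 47313 probes, which stood for 11151 named genes and 4017 probes with no single gene symbol here.

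Cisplatin is a platinum drug that binds neighbouring purines in DNA and crosslinks them. These lesions block DNA polymerases and also RNA polymerase II, which must travel the whole span of a gene, introns included, to make a transcript. Cells answer such damage through checkpoint kinases and through stress kinases such as JNK and p38, which act on AP-1 and on other factors of short, rapidly induced genes.

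Each of the 6 arrays detected between 18075 and 19582 probes. Arrays of shCTRL with CDDP correlated with each other at 0.966 to 0.980 and arrays of shCTRL without CDDP at 0.983 to 0.986, against 0.916 to 0.937 between the groups. shCTRL CDDP replicate 3 had the lowest array weight of the 12 arrays, 0.533. Nothing in the labels tells whether replicates were separate cultures; the p-values therefore reflect only how far replicate samples lay apart, possibly for technical reasons. The number of arrays limits the precision of each value. Of 14 markers of SK-OV-3 and of ovarian or epithelial origin, 11 were detected on all 6 arrays and none was absent from all of them. Of 16 markers of leukocytes, endothelium, fibroblasts and red cells, CD68 and COL1A1 were detected on all 6 arrays and 7 on none, among them CD3E, VWF, COL3A1 and HBB. The 4 markers of other cells that were counted averaged 6.72 to 6.89 per array with CDDP, against 6.49 to 6.64 without it (log2 signal). Of these, CD14, a monocyte receptor, was higher with CDDP (log2 change 1.22, SE 0.24, limma adjusted p = 0.00152); its part in the results below was not tested.

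CDDP changed a large part of the measured transcripts in both directions. With limma and Benjamini-Hochberg adjustment over 22260 probes, 2795 of 18732 probes were higher (14.9%) and 2949 were lower (15.7%) at an adjusted p under 0.05. Described by 1 probe each, 1921 of 11151 named genes were higher (17.2%) and 1996 were lower (17.9%), together 35.1%. The median log2 change over all named genes was 0.03. Median scaling of the arrays in place of quantiles gave 1311 higher and 2370 lower probes, so that the share of higher ones was 35.6% in place of 48.7%. At 2-fold or more, 1082 probes were higher (5.78%) and 1451 lower (7.75%). Among named genes, 760 rose at least 2-fold (6.82%) and 1003 fell at least 2-fold (8.99%). At 4-fold or more the counts were 97 and 182, and at 8-fold or more 22 and 23. The 3 arrays with CDDP lay apart from the 3 without it for 5499 genes (49.3%). Arrays were scaled to one distribution of signals, so every change is relative to the rest of the transcripts, and fewer cells of a kind and less RNA per cell cannot be told apart.

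**Figure D1:**
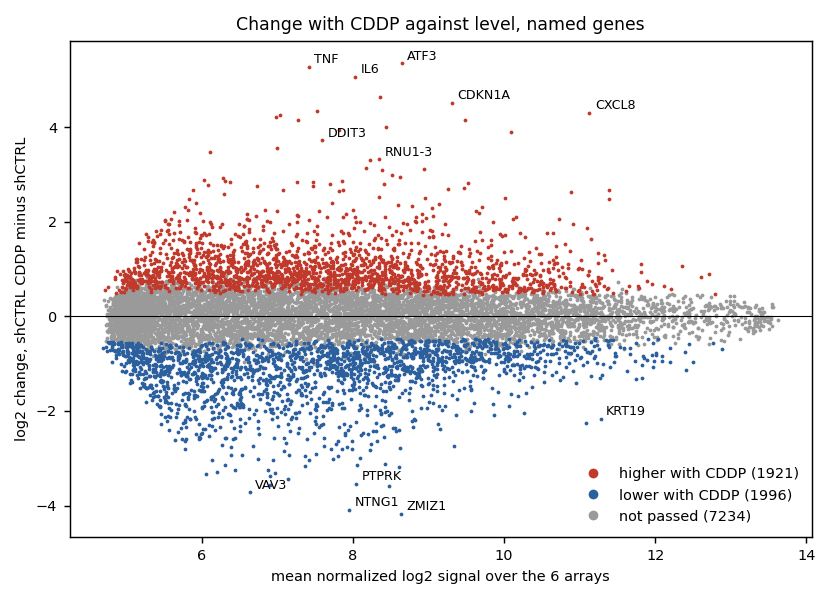
Each point is 1 of 11151 named genes; the x axis gives its mean normalized log2 signal over the 6 arrays and the y axis its log2 change, shCTRL CDDP minus shCTRL. The 1921 genes higher with CDDP are red, the 1996 lower ones blue and the others grey; the leading rises reach a log2 change of 5.35 and the leading falls -4.18.

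ATF3, a factor of the ATF and CREB family that stress induces, rose most. Its log2 signal was 11.61, 11.37 and 10.97 on the 3 arrays with CDDP, against 5.74, 5.88 and 6.29 on the 3 without it. The groups lay far apart, a 40.8-fold rise (log2 change 5.35, SE 0.23, limma adjusted p = 4.37e-09). FOSB, a partner of JUN in AP-1, had 9.73, 9.61 and 8.14 with CDDP, against 4.89, 5.01 and 4.84 without it, where 1 of 3 arrays detected it. FOS, the founding member of that family, had 10.67, 10.57 and 10.25 with CDDP, against 7.45, 7.15 and 7.53 without it. Both were higher on every array with CDDP than on any without it, by log2 4.25 and 3.12. Of 12 measured AP-1 factors and small MAF proteins, 8 rose and none fell, with a median log2 change of 1.37, against 0.03 over all named genes. MAFF (log2 2.79) and MAFG (1.33), small MAF proteins, JUN (1.53), JUNB (1.41) and BATF3 (1.16) made up the rest. JUND, a family member kept at a steady level in many cells, did not pass (log2 0.042, adjusted p = 0.896).

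The rise was unequal among immediate early genes, which are transcribed within minutes of a stimulus. Of 21 measured EGR, KLF, IER and NR4A genes and their kin, 13 rose and none fell (median 1.00). NR4A2, an orphan nuclear receptor, had 9.07, 8.88 and 8.37 with CDDP, against 5.38, 5.22 and 5.03 without it. KLF4, a zinc finger factor linked to arrest, had 9.76, 10.21 and 10.33 with CDDP, against 6.90, 6.97 and 7.58 without it. These 2 genes rose 11.8-fold and 7.73-fold. ZFP36, which binds AU-rich elements and speeds the decay of cytokine transcripts, rose by log2 2.23, IER5 by 2.10 and BTG1, an antiproliferative factor, by 1.64. EGR1, the zinc finger gene most often used as a marker of this class, had a log2 change of -0.26 (SE 0.49, adjusted p = 0.75). MYC, a growth regulator, had 10.16, 10.24 and 10.52 with CDDP, against 10.51, 10.37 and 10.53 without it, and did not pass (log2 -0.16, adjusted p = 0.548). The sign of EGR1 turned when shCTRL CDDP replicate 3 (0.28) or shCTRL replicate 1 (0.043) was left out.

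**Figure D2:**
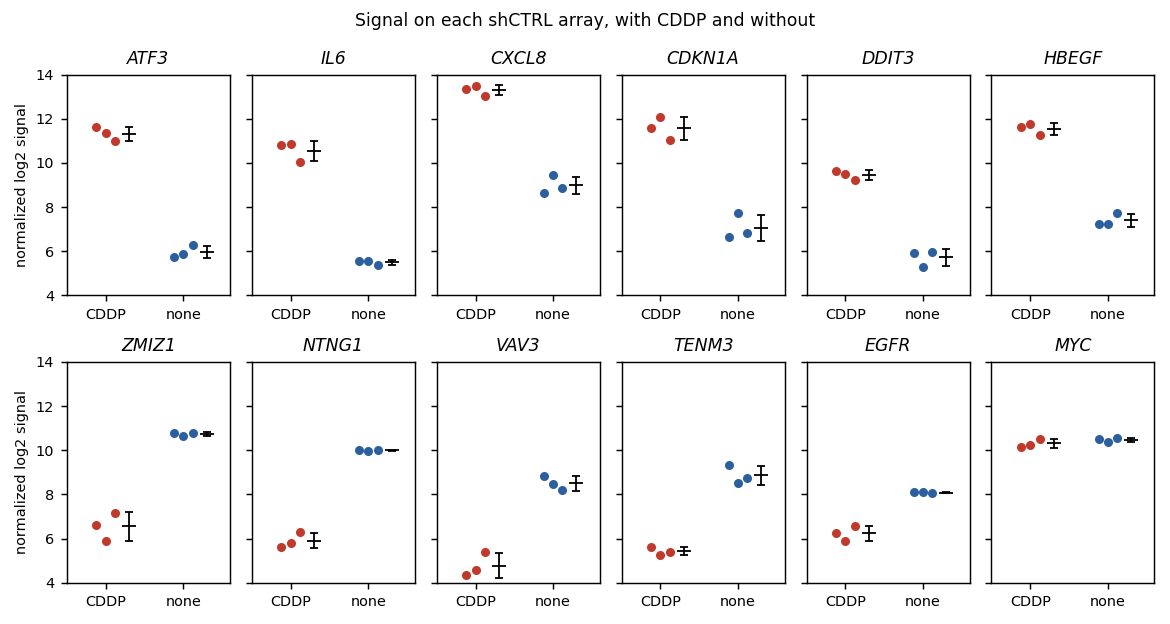
Normalized log2 signal of 12 genes on each shCTRL array, with CDDP (red, left) and without it (blue, right); the bar beside the points is the mean with the SD over 3 arrays. The groups do not overlap for any of the 11 genes from ATF3 to EGFR, while those of MYC do.

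Genes of inflammatory signalling were among the largest rises. TNF, a cytokine that triggers inflammation and cell death, was detected on no array without CDDP and had 10.13, 10.48 and 9.55 with it, against 4.82, 4.83 and 4.70 without it, at least 35.5-fold higher (limma adjusted p = 1e-07). Such a bound sets the mean of the detected group against, per array, the lowest signal among detected probes or the signal of the probe itself if higher. IL6, a cytokine that acts through STAT3, had 10.79, 10.85 and 10.03 with CDDP, against 5.58, 5.57 and 5.36 without it, a 33.3-fold rise (log2 change 5.06, SE 0.30). CXCL8, a neutrophil chemokine also called IL-8, had 13.36, 13.46 and 13.03 with CDDP, against 8.65, 9.43 and 8.85 without it, which put it among the brighter probes of treated cells. None of these genes overlapped between the groups. Of 18 measured cytokines and chemokines, 13 rose and none fell, and 12 of the 13 rose at least 2-fold (list median 1.38). CXCL2 (log2 4.64) and CCL20 (4.21) are further chemokines, while IL1A rose by 2.71 and VEGFA, the vessel growth factor, by 1.57. IL1B was detected on no array without CDDP and was at least 5.90-fold higher with it. PTGS2 (cyclooxygenase 2), which makes prostaglandins, was likewise undetected without CDDP and at least 7.12-fold higher with it. Of the members that did not pass, CCL5 stood at log2 -0.18 and IL15 at -0.49.

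NF-kB is held in the cytoplasm by inhibitors such as NFKBIA, whose gene it also activates, so that many of its targets are its own brakes. TNFAIP3 (A20), a ubiquitin-editing brake of the pathway, had 9.52, 10.02 and 9.53 with CDDP, against 5.24, 4.81 and 6.0 without it, a 20.2-fold rise (log2 change 4.34, SE 0.26, adjusted p = 5.99e-08). NFKBIA had 12.06, 11.57 and 11.63 with CDDP, against 9.96, 9.43 and 9.68 without it. Both genes were higher on all 3 arrays with CDDP. Of 23 measured subunits and feedback regulators, 12 rose and 1 fell (median 0.59). The subunit genes differed: NFKB2 (2.86) and RELB (1.92), which form the noncanonical dimer, rose, while NFKB1 (-0.22, adjusted p = 0.411), RELA (0.24, adjusted p = 0.741) and REL (-0.037, adjusted p = 0.961) did not pass. Without shCTRL CDDP replicate 2 the changes were -0.22 for RELA and 0.23 for REL. NFKBIZ, an atypical inhibitor-like cofactor, rose by log2 1.74 and NFKBIE, a classical inhibitor, by 1.17. TRAF3, which restrains the noncanonical pathway, was the member that fell (log2 -0.60, adjusted p = 0.0313), a call that was lost without shCTRL CDDP replicate 2 (adjusted p = 0.0749) and in 8 other settings. Under detection at 0.01 on all 6 arrays, where genes undetected in one group drop out, 7 NF-kB genes and 7 cytokine genes rose and 1 cytokine gene fell.

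The promoters of the measured genes were searched for short motifs. Of the 25 largest rises among genes, 21 had a promoter in the RefSeq table of build GRCh38.p14 (250 bases before to 50 after the start), and 7 of these 21 (33.3%) held the NF-kB-like letters GGANNTTCC on either strand. The same letters stood in 11 of 32 promoters of the measured NF-kB and cytokine genes (34.4%), lists made of genes known for this pathway, in 409 of 9018 promoters of the genes counted (4.54%) and in 4.59% of all 27305 promoters of the table. For the 25 largest falls it was 1 of 21, and for all genes that rose at least 2-fold 31 of 590 (5.25%), near the share over the genes counted. The cyclic AMP response element TGACGTCA was in 5.76% of promoters of genes that rose at least 2-fold, in 2.60% of those that fell at least 2-fold and in 3.30% of all genes counted. None of the 21 promoters of the largest rises held it. The AP-1 letters TGANTCA were in 4.92%, 4.01% and 4.49% in the same order, and in 2 of those 21 promoters. The E2F letters TTTGGCGC and TTTCCCGC were in 1.69% and 2.88% of promoters of genes that rose at least 2-fold. Over the genes counted they were in 1.10% and 2.72%, and none of the 21 promoters held either. The 6 highest-ranked rises with the NF-kB-like letters are shown over the 150 bases before their start, 5′ to 3′ on the strand of the gene, because their motif lies close to the start in each. Capitals mark GGANNTTCC or its reverse complement, and in CXCL8 also the AP-1 letters TGANTCA, which begin 137 bases before the start. A match is a description and was not tested as a binding site.
IL6 (chr7:22727050-22727199, plus strand): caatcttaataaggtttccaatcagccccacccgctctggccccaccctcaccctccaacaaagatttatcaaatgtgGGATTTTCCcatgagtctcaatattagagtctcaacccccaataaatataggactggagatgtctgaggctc
CXCL2 (chr4:74099196-74099345, minus strand): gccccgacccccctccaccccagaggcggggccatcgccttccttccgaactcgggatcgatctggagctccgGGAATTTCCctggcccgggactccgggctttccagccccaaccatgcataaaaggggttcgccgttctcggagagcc
TNFAIP3 (chr6:137867109-137867258, plus strand): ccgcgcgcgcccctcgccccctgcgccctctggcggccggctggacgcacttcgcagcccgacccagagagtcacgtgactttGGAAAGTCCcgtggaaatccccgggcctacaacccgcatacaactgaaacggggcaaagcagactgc
CXCL8 (chr4:73740419-73740568, plus strand): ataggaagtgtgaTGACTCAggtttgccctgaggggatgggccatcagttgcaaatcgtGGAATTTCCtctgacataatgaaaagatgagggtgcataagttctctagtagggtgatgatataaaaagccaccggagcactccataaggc
HBEGF (chr5:140346604-140346753, minus strand): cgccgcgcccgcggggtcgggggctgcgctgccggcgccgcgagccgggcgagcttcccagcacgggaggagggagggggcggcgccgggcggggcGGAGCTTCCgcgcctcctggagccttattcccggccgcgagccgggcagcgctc
ID2 (chr2:8681906-8682055, plus strand): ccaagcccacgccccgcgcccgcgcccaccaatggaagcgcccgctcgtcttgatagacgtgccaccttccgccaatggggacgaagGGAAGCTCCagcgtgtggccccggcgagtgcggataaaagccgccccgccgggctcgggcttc
The NF-kB-like letters begin 72 bases before the start in IL6, 77 in CXCL2, 67 in TNFAIP3, 91 in CXCL8, 54 in HBEGF and 63 in ID2. BCL6, a transcriptional repressor, was the seventh holder. No match was found in the windows of ATF3, TNF or CDKN1A, which says only that these letters are not in those 300 bases.

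Growth factor signalling genes moved in opposite directions. Of 9 measured EGF receptor ligands, receptors and inhibitor, 2 rose (22.2%), 3 fell (33.3%) and 4 did not pass (median -0.23). Over all named genes, 17.2% rose and 17.9% fell. HBEGF, a ligand of the EGF receptor, had 11.63, 11.77 and 11.25 with CDDP, against 7.22, 7.25 and 7.74 without it, a 17.7-fold rise (log2 change 4.15, SE 0.28). The receptor gene EGFR had 6.26, 5.89 and 6.58 with CDDP, against 8.09, 8.12 and 8.05 without it, and fell 3.59-fold (log2 change -1.84, adjusted p = 7.98e-05). In both genes the groups were separate. ERBB2, a receptor gene that is amplified in SK-OV-3, fell by log2 1.08 and the ligand gene NRG1, which spans 1135 kb, fell by 1.84. ERRFI1, an inhibitor of these receptors, rose by 1.31. MAP kinase phosphatases switch off ERK, JNK and p38, and DUSP1 (12.80, 12.77 and 12.61 with CDDP, against 10.21, 9.6 and 10.35 without it) and DUSP6 (9.24, 8.94 and 9.24, against 6.57, 6.16 and 6.76) were the leading members, with log2 changes of 2.67 and 2.65. Of 15 measured phosphatases and Sprouty inhibitors, 7 rose and 3 fell (median 0.66). The Sprouty genes, which dampen receptor signalling, split: SPRY4 rose by log2 2.24 and SPRY2 by 1.04, whereas SPRY1 fell, with a log2 change of -1.76 (adjusted p = 0.000794). The count of falls was 1 without shCTRL CDDP replicate 2.

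The integrated stress response slows translation through eIF2 phosphorylation and induces ATF4 and its targets. Of 25 measured genes of it and of the unfolded protein response, 14 rose and 1 fell (median 0.97). DDIT3 (CHOP), a factor that promotes death under lasting stress, had 9.65, 9.48 and 9.23 with CDDP, against 5.93, 5.28 and 5.98 without it, a 13.2-fold rise (log2 change 3.72, SE 0.21, adjusted p = 4.28e-08). PPP1R15A (GADD34), which restores translation, had 11.05, 11.09 and 10.65 with CDDP, against 8.34, 8.10 and 7.90 without it. DDIT4 (REDD1), an inhibitor of mTORC1, had 9.93, 10.21 and 9.64, against 6.93, 7.14 and 6.45. All 3 genes were higher on each array with CDDP, by log2 3.72, 2.82 and 3.09. Amino acid synthesis genes MTHFD2 (1.72), ASNS (1.39) and PHGDH (0.97) rose less, and the glutathione-degrading enzyme CHAC1 went undetected without CDDP and was at least 2.67-fold higher with it. The regulator ATF4 itself did not pass (log2 0.46, adjusted p = 0.0707) and passed when replicate number was a block (0.46, adjusted p = 0.0472). It also passed under strict detection (adjusted p = 0.0391), without background correction (0.0163), from the series matrix values (0.0257) and with a variance trend (0.0177). HSPA5 (BiP), the main chaperone of the endoplasmic reticulum, did not pass either (-0.14, adjusted p = 0.669). ATF6, a sensor gene that spans 198 kb, was the member that fell (log2 -1.41, adjusted p = 1.38e-05).

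Arrest and death genes often studied as p53 targets rose in part. CDKN1A (p21), an inhibitor of cyclin-dependent kinases, had 11.59, 12.06 and 11.04 with CDDP, against 6.63, 7.71 and 6.83 without it, a 22.7-fold rise (log2 change 4.51, SE 0.30, adjusted p = 1.33e-07). PMAIP1 (NOXA), which neutralises MCL1, had 11.80, 12.27 and 12.05 with CDDP, against 7.56, 8.49 and 8.38 without it. GADD45A, a stress sensor, had 12.67, 12.73 and 12.48, against 9.94, 9.99 and 10.49. The groups did not overlap in any of the 3. Of 28 measured genes, 13 rose and 1 fell (median 0.59), the fall being lost in 5 of the 6 fits that each left out 1 of the 6 arrays, with GADD45B (2.30), SFN (14-3-3 sigma, 2.06), the TRAIL receptor gene TNFRSF10B (1.37) and the damage recognition gene XPC (1.03) among the rises. MDM2, the E3 ligase that limits p53, was detected on 2 of 3 arrays in each group and did not pass (log2 0.10, SE 0.23, adjusted p = 0.789). BBC3 (PUMA, 0.38, adjusted p = 0.291) and BAX (0.018, adjusted p = 0.97), further killers of the BCL2 family, did not pass; BAX was at -0.10 under median scaling.

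Of the survival genes of the BCL2 family, BCL2L1 (BCL-XL) had 10.03, 10.16 and 10.11 with CDDP, against 11.17, 11.25 and 11.39 without it, a log2 change of -1.17 (SE 0.18, adjusted p = 0.000208). BCL2 fell by its brightest probe (log2 -1.22), but 1 of its 3 probes was called higher. Of 14 measured family members, 3 rose (21.4%) and 2 fell (14.3%), near the 17.2% and 17.9% over all named genes, and 5 rose without background correction or from the series matrix values. MCL1 did not pass (0.64, adjusted p = 0.0638). The decoy receptor gene TNFRSF10D rose by log2 2.10. Of 19 measured death receptor, adaptor and caspase genes, 5 rose and 3 fell (26.3% and 15.8%). The falls numbered 1 without shCTRL CDDP replicate 2, and under median scaling 2 rose and 1 fell.

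Cell cycle genes were described by phase. Of 22 measured G1 genes, 8 rose (36.4%) and 5 fell (22.7%), against 17.2% and 17.9% over all named genes. The falls numbered 2 without shCTRL replicate 1 and 3 without shCTRL CDDP replicate 2. CCNE1 (cyclin E1), which drives entry into S phase, had 9.75, 10.78 and 9.84 with CDDP, against 7.77, 7.84 and 8.39 without it (log2 change 2.12, SE 0.28). E2F2 rose by log2 2.08, E2F7 by 1.36 and CDK2 by 1.07, whereas CDK6 (log2 -1.43) and the pocket protein gene RBL2 (-1.33) fell. CCND1 (cyclin D1) stood at log2 0.054 and did not pass. Of 42 measured replication and E2F target genes, 14 rose and 2 fell (median 0.43), led by the histone chaperone gene ASF1B (2.29), MCM10 (1.39), CDC6 (1.17) and FEN1 (1.13), and with POLA1, which spans 303 kb, as the larger fall (-1.12). That count of 14 was 9 without shCTRL replicate 1, 7 without shCTRL CDDP replicate 2 and 8 under median scaling.

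Of 47 measured mitosis and spindle genes, 12 fell and 4 rose (median -0.35, against 0.03 over all named genes). CDC20, an activator of the anaphase-promoting complex, had 11.89, 11.52 and 11.74 with CDDP, against 12.51, 13.03 and 12.50 without it. KIF11, the motor that parts the spindle poles, had 7.86, 7.72 and 8.64, against 9.15, 9.71 and 9.0. KIF20B fell by log2 1.28 and the centromere histone gene CENPA fell by 1.07. These 4 kept their call under every alternative that gave a value. The count of falls was 5 without shCTRL replicate 2 and 7 without shCTRL CDDP replicate 2, and the 4 rises numbered 0 without either shCTRL replicate 1 or shCTRL CDDP replicate 2.

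Crosslinks are removed by Fanconi proteins and homologous recombination. Of 23 measured Fanconi and homologous recombination genes, 8 rose (34.8%) and 2 fell (8.70%), against 17.2% and 17.9% over all named genes. The list median was 0.23, 13 of the genes did not pass, and the count of rises was 5 under median scaling. EXO1, a resecting nuclease, had 9.80, 10.05 and 9.65 with CDDP, against 8.38, 8.07 and 8.05 without it (log2 change 1.67, SE 0.22), and RAD54L rose by 1.43. FANCC, a core complex gene that spans 219 kb, fell by log2 1.85. Of 25 measured nucleotide excision repair genes, 3 rose and 3 fell, which is 12% each, against 17.2% and 17.9% over all named genes. The falls numbered 1 without shCTRL CDDP replicate 2 or shCTRL replicate 2 or 3. XPC was among the rises, and MNAT1, a subunit of TFIIH that spans 235 kb, had the largest fall (log2 -2.04, adjusted p = 7.68e-05). Of 13 measured platinum and copper transporters and drug exporters, 4 fell (30.8%), 1 rose (7.69%) and 8 did not pass (median -0.03). The falls were ATP7A (-1.11), ATP7B (-1.46), LRRC8D (-1.46) and ABCC4 (-1.87). They numbered 2 under detection at 0.01 on all 6 arrays, and the rises numbered 2 without shCTRL CDDP replicate 3.

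Small noncoding RNAs included large rises. Of 11 measured genes that RefSeq classes as small nuclear RNA, 9 were called higher, but 4 of the 9 are U1 genes so alike that their probes may read the same RNA, and the tally is no count of separate rises. Of 85 snoRNA genes 26 rose (30.6%) and 1 fell, against 17% and 18.5% of 10634 protein-coding genes. RNU1-3, a U1 gene, had 9.78, 10 and 10.24 with CDDP, against 6.43, 6.66 and 6.97 without it (log2 change 3.32, SE 0.25). The other U1 genes were RNVU1-7 (3.31), RNVU1-18 (2.98) and RNU1-1 (2.52). RN7SK, the RNA that holds the elongation kinase P-TEFb inactive, had 8.61, 8.73 and 8.07, against 7.40, 6.78 and 6.63. HEXIM1, its protein partner, rose by log2 1.66 and CCNT1, the cyclin of P-TEFb, by 1.5. POLR2A, the large subunit of RNA polymerase II, rose by 1.14. Transcription elongation genes did not rise as a whole. Among 28 measured, 10 rose (35.7%), 5 fell (17.9%) and 13 did not pass (median 0.29). The shares over all named genes were 17.2% and 17.9%. Under median scaling 5 of the elongation genes rose and 2 fell, and 1 fell without shCTRL CDDP replicate 2.

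Of 14 measured snoRNA host long noncoding RNAs, 11 rose and none fell (median 1.03). SNHG15 had 8.97, 9.24 and 9.05 with CDDP, against 6.93, 6.92 and 7.44 without it, and SNHG1 had 11.60, 11.46 and 11.28, against 9.67, 9.57 and 9.80. Both were higher on every array with CDDP, by log2 1.99 and 1.76. Among 47 C/D box snoRNAs, which guide methylation of ribosomal RNA, 17 rose and none fell, and 10 rose under median scaling. Among 44 H/ACA and Cajal body guide RNAs 15 rose and 1 fell. The 15 were 6 without shCTRL replicate 1, 9 without shCTRL CDDP replicate 2 or 3 and 5 under median scaling, and the fall was lost without shCTRL replicate 1, among other settings. SNORD110 (2.02) and SCARNA9 (1.40) led these lists.

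The change with CDDP followed the span of a gene, from its start to its end with introns (RefSeq, 11142 genes). Among 2628 genes under 10 kb, 27.2% rose and 4.0% fell, with a median log2 change of 0.27. Among 3220 genes of 10 to 30 kb, 25.5% rose and 5.34% fell (median 0.23). Short genes therefore rose more often than they fell. At 30 to 100 kb the shares were 10.1% and 16.8% of 3467 genes (median -0.10), and at 100 to 300 kb 1.86% and 59.5% of 1506 genes (median -0.79). Of 321 genes over 300 kb, 5 rose (1.56%) and 239 fell (74.5%), with a median of -1.31 and quartiles of -2.05 and -0.57. None of the 321 rose 2-fold and 204 fell at least 2-fold. On the 3 arrays with CDDP taken singly, that median stood at -1.44, -1.38 and -1.28 relative to the shCTRL mean. Across genes, which are not replicates and share these arrays, Spearman's rho of span and change was -0.508.

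**Figure D3:**
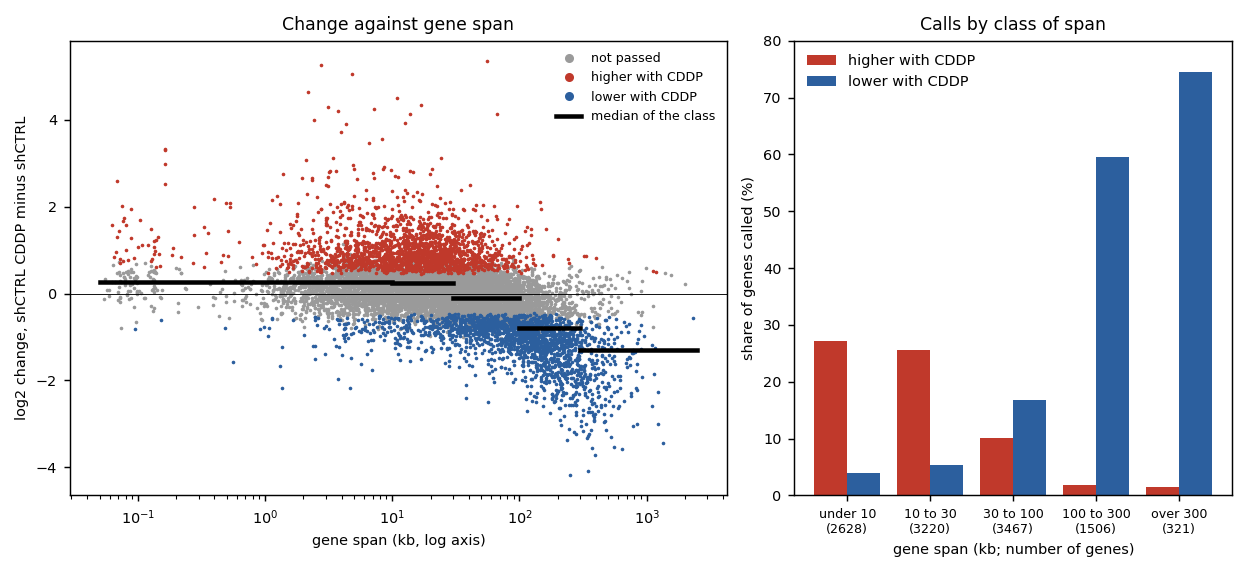
Left, the log2 change (shCTRL CDDP minus shCTRL) of 11142 named genes against gene span in kb on a log axis, coloured by call, with a black bar at the median of each class of span. Right, the share of genes in each class called higher (red) or lower (blue); the share of lower genes climbs to 74.5% above 300 kb.

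The pattern held at each level of signal. With genes split into 3 equal classes of mean signal, rho was -0.489 in the low, -0.601 in the middle and -0.457 in the high class, and the median of genes over 300 kb was -1.15, -1.89 and -1.27 in the same order. Genes that rose at least 2-fold had a median span of 12.9 kb and those that fell at least 2-fold 169 kb, against 27.9 kb over all. Of the genes that fell at least 2-fold, 77.0% spanned 100 kb or more, as did 16.4% of all named genes. The 25 largest falls all spanned over 200 kb, and 23 of the 25 largest rises under 30 kb, where the median over all genes was 27.9 kb. The exceptions among the rises were ATF3 (55.4 kb) and SLC25A24 (66.3 kb), a mitochondrial ATP carrier that rose by log2 4.14.

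ZMIZ1, a coactivator of SMAD and androgen receptor signalling that spans 248 kb, had 6.61, 5.88 and 7.15 with CDDP, against 10.77, 10.63 and 10.78 without it. It fell 18.1-fold (log2 change -4.18, SE 0.27, limma adjusted p = 9.87e-08). NTNG1 (netrin G1, 345 kb), an axon guidance protein, had 5.61, 5.81 and 6.30, against 10.02, 9.95 and 10. VAV3 (394 kb) had 4.34, 4.58 and 5.41, against 8.83, 8.46 and 8.18, and was detected on 1 of 3 arrays with CDDP. All 3 were lower on each array with CDDP than on any without it. The 10 longest genes measured behaved unequally: 6 fell, 1 rose and 3 did not pass. TENM3 (teneurin 3, 1355 kb) had 5.63, 5.27 and 5.37, against 9.33, 8.51 and 8.73, and KAZN (kazrin, 1225 kb) fell by log2 3.01. EYS (1987 kb) stood at log2 0.22, PDE4D (1553 kb), a cyclic AMP phosphodiesterase, at 0.42 and DPP10 (1403 kb) at 0.47, none of them passing. The longest, PTPRD (2299 kb), was detected on no array with CDDP (log2 -0.56, adjusted p = 0.0419), and its call was lost without shCTRL CDDP replicate 2 (adjusted p = 0.153) and in 8 other settings. GPC6, a cell surface proteoglycan, was called higher by its brighter probe and lower by the other.

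Several families of long genes had most members lower. Of 10 measured receptor protein tyrosine phosphatases, which remove phosphate at the membrane, 9 fell and none rose (median -1.25). Their median span was 231 kb, and 59.5% of all genes of 100 to 300 kb fell. PTPRK (552 kb) had 6.60, 5.99 and 6.23 with CDDP, against 10.04, 9.88 and 9.51 without it (log2 change -3.54, SE 0.31). PTPRE fell by log2 2.31 and PTPRM fell by 1.61. Of 9 measured genes at common fragile sites, which break under replication stress, 7 fell (77.8%) and 1 rose, and 2 of those detected at 0.01 on all 6 arrays fell. That list had a median span of 843 kb, and its share of falls was near the 74.5% of all genes over 300 kb. DPYD (843 kb), the enzyme that breaks down pyrimidines, had 5.36, 6.44 and 6.88, against 9.01, 9.41 and 9.30, and LPP (738 kb) fell by 1.65. WWOX was the exception (log2 0.51, adjusted p = 0.0389), and its call was lost under median scaling (adjusted p = 0.258) and in 9 other settings. Its counted probe was detected on no array without CDDP, but another probe of WWOX was, so the gene is not taken as undetected there.

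Wnt signalling acts through beta-catenin on cell fate and growth. Of 22 measured Wnt genes, 11 fell (50%) and 2 rose (9.09%), against 17.9% and 17.2% over all named genes (list median -0.56). The rises numbered 1 without shCTRL CDDP replicate 3 or shCTRL replicate 1 or 2. WNT7B, a ligand, had 7.04, 6.58 and 6.91 with CDDP, against 9.41, 9.01 and 9.64 without it, and its span of 56.8 kb is not among the longest. TCF7L2, a factor that acts with beta-catenin, fell by log2 1.87 and the kinase gene GSK3B fell by 1.54. FZD2 fell (-1.23) and FZD5 rose (1.04), both short receptor genes. Of 24 measured matrix genes, 9 fell and 1 rose (median -0.52), the rise being lost without shCTRL replicate 1, with VCAN (versican) at 10.41, 10.63 and 10.82, against 12.05, 11.81 and 11.92, and LAMC1, a laminin chain, at a log2 change of -1.06. Among BMP and TGF-beta genes, ID2, an inhibitor of differentiation factors, had 10.81, 10.65 and 9.84, against 6.81, 6.14 and 6.33, while BMP2 rose by log2 1.81, SMAD3 fell by 1.5 and BMPR2 fell by 1.67. CREBBP, a histone acetyltransferase, was the largest fall among 25 measured chromatin enzymes (log2 -1.46), of which 10 fell and 2 rose. In that list 6 fell without shCTRL replicate 3, and none rose without shCTRL replicate 1 or 2. Falls made up 37.5% of the matrix list and 40% of the chromatin list. Median spans were 47.1 kb for the Wnt, 84.75 kb for the matrix and 90.3 kb for the chromatin list, against 27.9 kb over all genes. Whether these lists fell more than other genes of like span was not tested.

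The ZNF zinc finger genes, mostly repressors with clustered copies, leaned upwards. Of 351 measured, 113 rose (32.2%) and 19 fell (5.41%), with a median log2 change of 0.36 and a median span of 23.1 kb. Of the 17 that span 100 kb or more, 9 fell and 1 rose, where 59.5% of all genes of 100 to 300 kb and 74.5% of those over 300 kb fell. ZNF296 had 9.22, 9.77 and 8.88 with CDDP, against 6.12, 6.63 and 6.53 without it. ZNF407 (468 kb) was detected on no array with CDDP and had 4.44, 4.53 and 4.43, against 6.72, 6.97 and 7.01. Under median scaling 58 of the ZNF genes rose.

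**Figure D4:**
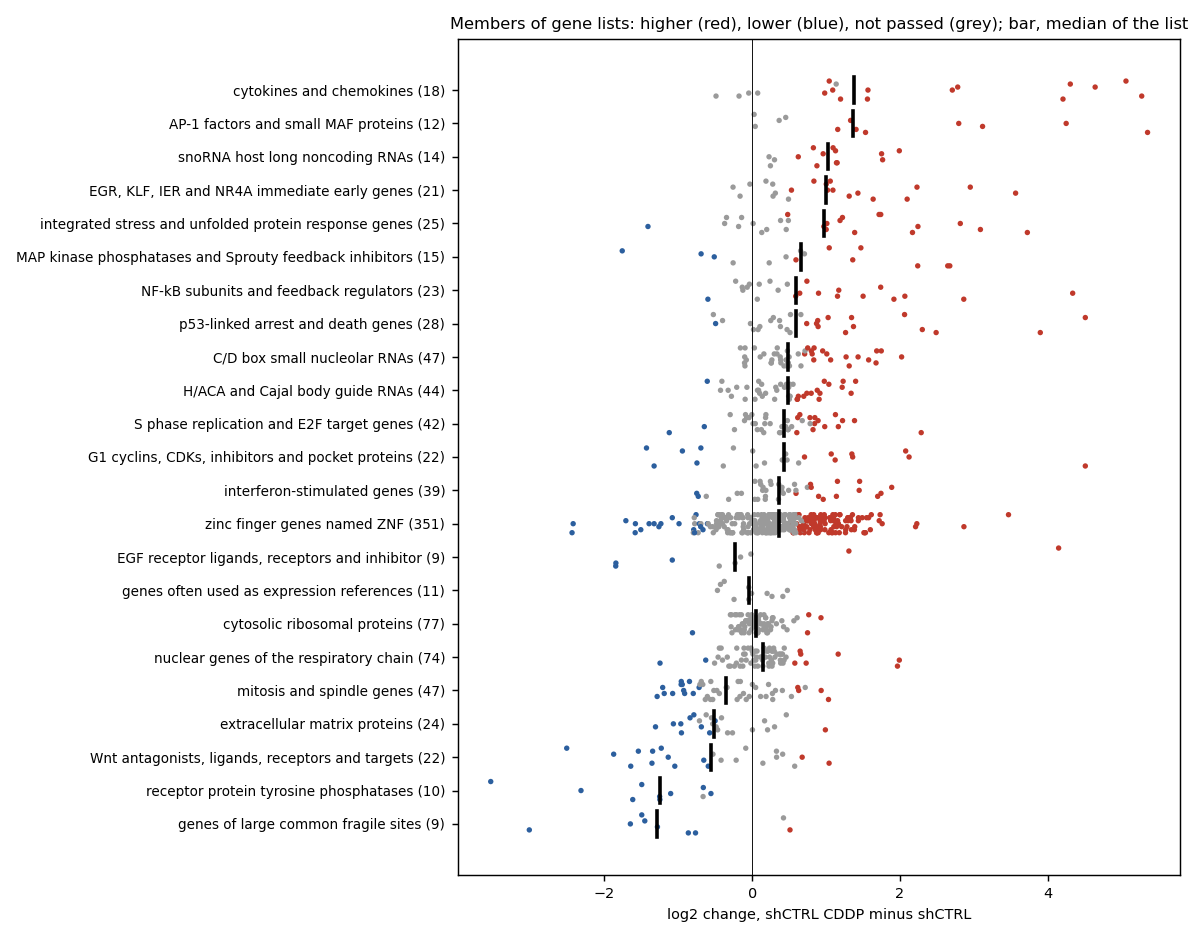
Each point is a measured member of a gene list, placed by its log2 change (shCTRL CDDP minus shCTRL) and coloured by call; the black bar is the median of the list and the number in brackets its measured members. Medians run from 1.38 for cytokines and chemokines to -1.28 for genes of large fragile sites.

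Several genes crossed the detection limit. Of the named genes called higher, 79 had no probe detected on any array without CDDP and were detected on all 3 with it. Under 30 kb spanned 70 of the 79. Among all 11142 genes with a span, 2628 were under 10 kb and 3220 were of 10 to 30 kb. ZNF280A was at least 7.62-fold higher, RASD1, a Ras-related protein, at least 4.97-fold and TENT5C, a poly(A) polymerase, at least 4.48-fold. Of the genes called lower, 149 had no probe detected on any array with CDDP and were detected on all 3 without it. A span of 100 kb or more was held by 117 of the 149 and by 16.4% of all named genes. Both sets were counted only through the group where they were detected, so the choice of these genes fixes their direction. PDE7B, a cyclic AMP phosphodiesterase, had 4.54, 4.46 and 4.69, against 8.0, 7.60 and 7.92, at least 7.46-fold lower. NLGN4X, a synaptic adhesion protein, was at least 6.87-fold lower, HDAC4, a class II histone deacetylase, at least 4.44-fold and BMPR1B, a BMP receptor, at least 4.26-fold.

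Large housekeeping classes had few calls, and the counts depended on the setting. None of 11 genes often used as expression references passed in either direction (limma, median -0.05), while 1 rose and 1 fell without background correction. Of 77 measured ribosomal protein genes, 3 rose and 1 fell, and 7 rose without background correction. The fall was lost without shCTRL replicate 1 or 2 or shCTRL CDDP replicate 2 or 3. Of 74 nuclear genes of the respiratory chain 7 rose and 2 fell, and of 41 proteasome genes 1 rose and 4 fell. Without background correction 14 respiratory chain genes rose, and 4 proteasome genes rose and 9 fell. Proteasome falls numbered 1 without shCTRL CDDP replicate 2, 2 without shCTRL replicate 1 or 3 and 0 under median scaling. Among the 18 cytosolic aminoacyl-tRNA synthetases 1 rose and none fell, while among the 16 mitochondrial ones 1 rose (2 without shCTRL replicate 3 or shCTRL CDDP replicate 3) and 6 fell. FARS2 (522 kb), the mitochondrial phenylalanine enzyme, had 5.33, 5.45 and 5.18 with CDDP, against 8.63, 8.57 and 8.68 without it (log2 change -3.31, SE 0.20). Of the 14 markers of SK-OV-3 and of ovarian or epithelial origin, 4 fell, 1 rose and 9 did not pass (median -0.29). SOX17, a factor of ovarian carcinoma, rose by log2 0.93, and 2 rose without shCTRL CDDP replicate 3. PAX8, a lineage factor, fell by log2 1.53 and KRT19, an epithelial keratin gene of only 4.69 kb, had 10.28, 10.33 and 9.95, against 12.32, 12.22 and 12.52 (log2 -2.17, adjusted p = 6.52e-06).

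IRF1, the interferon factor that the other shRNA targets, had 9.97, 10.38 and 9.38 with CDDP, against 8.30, 8.51 and 7.84 without it. On arrays labelled shIRF-1 the means were 9.09 ± 0.16 with CDDP and 8.31 ± 0.25 without it (SD, n = 3 each), the second not below the 8.21 ± 0.34 of shCTRL (SD, n = 3). Samples of that shRNA are therefore called arrays labelled shIRF-1. Of 39 measured interferon-stimulated genes, 12 rose and 2 fell under shCTRL (median 0.36), and 1 fell without shCTRL CDDP replicate 2 or shCTRL replicate 1 or 3. IRF7 had 9.21, 9.70 and 9.34, against 7.29, 7.74 and 7.55, ISG15, a ubiquitin-like modifier, rose by log2 1.45 and GBP1, a guanylate-binding protein, by 1.45. TAP1, a peptide transporter for class I presentation, rose by 1.19.

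The response was then set beside that of the arrays labelled shIRF-1, which share no array with it. There, 1524 named genes were higher with CDDP (13.7%) and 1681 lower (15.1%); 1143 genes were called higher under both labels, 1351 lower under both and 6 in opposite directions. All 25 of the largest rises under shCTRL were called higher there and all 25 of the largest falls lower. The medians by span ran alike, from 0.17 for genes under 10 kb to -1.36 for genes over 300 kb. Tested directly, the difference of the responses passed for 14 of 18732 probes (0.0747%), 10 with the higher value under shCTRL, and at an unadjusted limma p under 0.05 for 1544. Among named genes 6 passed (0.0538%). For DEPTOR and NCALD, detected on no shCTRL array with CDDP, background limits the fall under shCTRL, so their values are not read as a difference of responses. IFIT2, which binds viral RNA ends, changed by log2 1.74 under shCTRL, against -0.35 on arrays labelled shIRF-1, a difference of 2.09 (SE 0.31, adjusted p = 0.0146). TSC22D3 (GILZ), a glucocorticoid-induced factor, changed by 2.02, against 0.36 (difference 1.66, SE 0.25, adjusted p = 0.0146). DDIT4 changed by 3.09, against 0.90, and its difference of 2.19 did not pass (adjusted p = 0.0672). IRF1 itself changed by 1.70, against 0.78, a difference of 0.92 with a 95% confidence interval of 0.17 to 1.66 (adjusted p = 0.53).

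**Figure D5:**
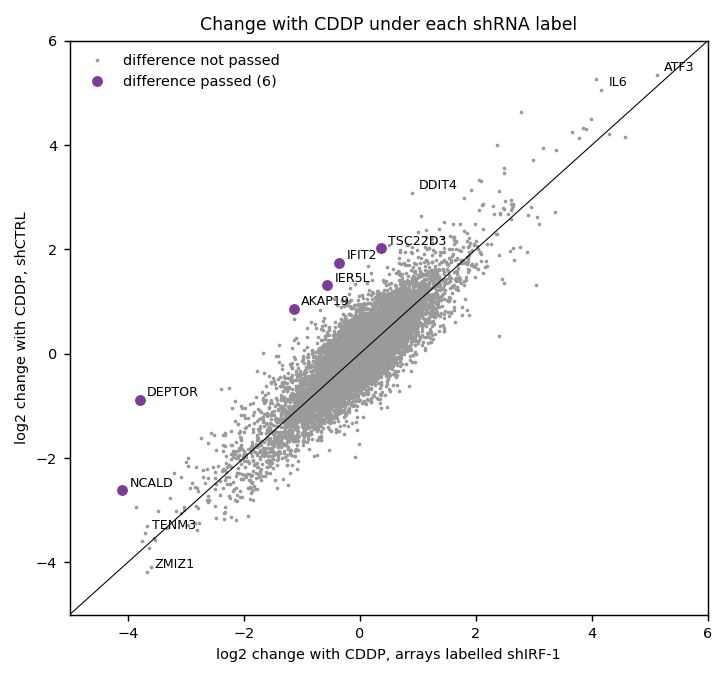
Log2 change with CDDP of each named gene under shCTRL (y axis) against that on arrays labelled shIRF-1 (x axis), with the line of equal change. Purple points are the 6 genes whose difference between the responses passed, of which DEPTOR and NCALD were undetected under shCTRL with CDDP; most genes lie along the line.

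Probes of one gene did not always move alike. Of 1068 called genes with several counted probes, 545 had all probes called in the same direction. In 13 genes, among them ALYREF, BCL2, GPC6, HNRNPDL and WDR33, probes were called in opposite directions, and which transcripts each probe reads is not given in the files used here.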

How the data were processed

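Total RNA of 12 SK-OV-3 samples, 4 groups of 3, was measured on 1-colour Illumina bead arrays, read with BeadStudio 2 per the submitters' processing notes. The deposited intensity of each probe is the authors' mean bead signal with no scaling between arrays, per the file headers. The deposited detection p-value of each probe, per the file headers, sets its signal against the negative controls of its array. The deposited series matrix values are a straight line of the same signals and served as an alternative.

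Signals were background-corrected with neqc (limma 3.58.1, R 4.3.3, offset 16, negative controls inferred from the detection p-values), quantile normalized and put on the log2 scale. Probes detected at 0.05 on at least 3 of 12 arrays, 22260 in all, were fitted with limma, 1 mean per group, and p-values were adjusted by Benjamini and Hochberg. Of 47313 probes, 30109 had 1 gene symbol in the platform annotation, 8 had several and 17196 none; symbols were updated by Entrez identifier for 30070. Each gene was described by 1 counted probe, the one brightest on average across all 12 arrays. Spans and promoters came from RefSeq, GRCh38.p14. The fit was tested on simulated data.

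Samples were grouped by their titles. Deviations from group means of same-numbered arrays correlated at 0.198 to 0.253, against -0.205 to -0.0521 for other numbers. Deviations within a group cancel out, so positive values for same numbers bring negative values for other numbers on average. Part of this contrast is therefore arithmetic. A pairing by replicate number was read from these data and not from a stated batch. It entered only the alternative with a replicate block, and the main fit and its p-values left it out. Genes were named by a fixed rule: IRF1, the 25 largest rises and 25 largest falls, up to 6 called members and the textbook regulators of each list, the 10 longest genes, genes that crossed the detection limit, genes whose responses differed and genes with opposed probes. Members and the 47 lists were chosen with earlier results of these data known. Alternatives covered scaling, background correction, detection filter, adjustment, probe choice, arrays in the fit, variance trend, array weights, a replicate block and each array left out. The result of 1 list is not reported here.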

Additional observations from a re-analysis of the deposited data

Results flagged for a closer look

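The difference between the CDDP response under shCTRL and that on arrays labelled shIRF-1 was tested in limma and passed for 6 named genes. IFIT2 had a difference of 2.09 (log2, shCTRL minus shIRF-1, adjusted p = 0.0146). AKAP19 had a difference of 2.00 (adjusted p = 0.0146), with changes of 0.86 under shCTRL, against -1.14 on arrays labelled shIRF-1. IER5L had a difference of 1.88 (adjusted p = 0.0146), with changes of 1.31, against -0.56. TSC22D3 had a difference of 1.66 (adjusted p = 0.0146). The fit also gave 2.90 for DEPTOR, an inhibitor of mTOR, and 1.48 for NCALD, a calcium sensor. Both were detected on 0 of 3 shCTRL arrays with CDDP, where DEPTOR had 4.33, 4.55 and 4.38, against 5.22, 5.39 and 5.32 without CDDP. Background limits how far either gene could fall under shCTRL, so these 2 values and their p are not read as a difference of responses.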

How the results depend on the processing

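Of 8533 values of 510 genes followed under 17 alternatives, 7851 kept direction and side of the threshold, 652 lost a call, 16 gained one and 14 turned in sign; 149 of 492 called genes lost their call in at least 1 setting. The signs turned only for genes that had not passed. With single arrays left out, EGR1 lay between -0.67 and 0.28, MDM2 between -0.041 and 0.29, JUND between -0.045 and 0.16, CCL5 between -0.49 and 0.037, RELA between -0.22 and 1.01, REL between -0.22 and 0.23 and BAX between -0.19 and 0.33. EGR1 was 0.039 with array weights and BAX was -0.10 under median scaling. The median of the markers of other cells was -0.14 with detection at 0.01 on all 6 arrays.

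Median scaling gave 1311 higher probes in place of 2795. Leaving out single arrays gave 2007 to 2534 higher and 2310 to 2819 lower probes. With replicate number as a block, 3028 were higher and 3173 lower, and among the 510 genes followed 1 lost and 1 gained its call. The difference between responses gave 3 higher and 1 lower probe under median scaling, 16 and 8 without background correction, 19 and 7 from the series matrix values, 6 and 2 under strict detection, 1 lower with 1 probe per gene, 16 higher with a variance trend and 16 with array weights, and single arrays left out gave 2 to 11 higher and 1 to 5 lower. The median of genes over 300 kb was -1.41 under median scaling, -0.63 without background correction, -0.87 from the series matrix values, -1.15 and -1.89 in the low and middle classes of signal and -1.28 to -1.39 with single arrays left out. Spearman's rho of span and change lay between -0.490 and -0.523. The cause of these shifts was not tested. Signals near background limit the size of falls, since a gene undetected on one side has only a bound.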

Other observations

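The groups below were chosen after their values were seen. Of 39 measured genes with hnRNP or SR splicing factor symbols, 15 fell (38.5%) and 2 rose (5.13%), against 17.9% and 17.2% over all named genes. The list median was -0.32, against 0.03 over all named genes. Under the alternative settings the lowest count of falls was 10, and 1 rose under median scaling. The largest fall of the list was that of a transcribed pseudogene, HNRNPA1P33 (log2 -1.59). Which transcripts its probe reads is not known here, so the tally is no count of separate splicing factor genes. HNRNPA1, which binds nascent RNA, had 6.20, 4.81 and 5.34 with CDDP, where 2 of 3 arrays detected it, against 6.91, 6.70 and 6.92 without it. RBMX had 8.90, 8.56 and 8.92, against 10.25, 10.40 and 10.36. Neither gene overlapped between the groups, and both are short, at 6.36 and 11.5 kb. SRSF3 fell by log2 1.16 and HNRNPA2B1 fell by 1.14. The probes of HNRNPDL were called in opposite directions.

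All 4 measured ligands of NKG2D, the activating receptor of natural killer cells, rose (median 2.17), where 17.2% of all named genes rose. The lowest count of rises under an alternative setting was 3. ULBP1 had 7.84, 7.83 and 7.72 with CDDP, against 5.01, 4.99 and 4.85 without it, and ULBP2 had 8.38, 8.47 and 8.38, against 5.78, 5.63 and 5.84. MICB rose by log2 1.68 and MICA by 1.07.

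Some genes stood against the trend by span. Of the genes of 100 to 300 kb, 12 rose at least 2-fold, with TSC22D1 at 11.20, 11.14 and 11.30, against 9.14, 8.86 and 9.32, and SGK1, a kinase induced by stress and hormones, at 11.78, 11.87 and 12.01, against 9.86, 9.78 and 10.16. Of the genes under 10 kb, 26 fell at least 2-fold, with S100A2, a calcium-binding protein, at a log2 change of -1.48 and THBD (thrombomodulin) at -1.41.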
